A study of Mus musculus with 62 samples.

Results

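Expression of the glycolytic pathway was described through 10 genes over mouse progenitor clones, the monocytic cells grown from them, and primary monocytes. The members were Slc2a1 (ENSMUSG00000028645), which encodes the glucose transporter GLUT1, and the enzyme genes Hk2 (ENSMUSG00000000628), Pfkl (ENSMUSG00000020277), Pfkp (ENSMUSG00000021196), Aldoa (ENSMUSG00000030695), Tpi1 (ENSMUSG00000023456), Pgk1 (ENSMUSG00000062070), Pgam1 (ENSMUSG00000011752), Eno1 (ENSMUSG00000063524) and Ldha (ENSMUSG00000063229). They were taken by symbol from a table of raw read counts for 37620 genes. All 10 symbols were found, and all 10 passed the filter on low counts in each comparison.

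The 62 RNA-seq libraries came from 2 sources. From culture, 24 ER-Hoxb8 clones, numbered 1 to 13 and 15 to 25, each gave 1 library of monocytic cells and 1 library of progenitors of granulocyte-monocyte type, so that the same clone was seen in both states. ER-Hoxb8 is a fusion of the estrogen receptor with the homeobox protein Hoxb8, which holds myeloid progenitors in division while it is active. All clones carry it, in both states, and were grown in RPMI with 10% serum and stem cell factor. The sample titles mark the progenitor libraries as Plus and the monocytic libraries as Minus. This mark and the state go together in every clone and cannot be told apart. Each clone descends from 1 cell, so that a clone is a replicate of the state but has no replicate of its own. From mouse bone marrow, sorted primary monocytes gave 2 libraries each of nonclassical, intermediate and classical monocytes, and 2 libraries each of class 4, class 3, class 2 and class 1 monocytes. The gates, the meaning of the classes, and the strain, age and sex of the animals are not given in the sources used here. The labels do not say whether the 2 libraries of a primary group came from separate animals, so p-values among them measure only the spread between these libraries.

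Glycolysis turns glucose into pyruvate in the cytosol and yields ATP without oxygen. GLUT1 lets glucose in, hexokinase traps it by phosphorylation, phosphofructokinase commits it to the pathway, and aldolase and triosephosphate isomerase make the triose phosphates. Phosphoglycerate kinase, phosphoglycerate mutase and enolase lead on towards pyruvate, and lactate dehydrogenase A reduces pyruvate to lactate, which restores the NAD+ the pathway needs. Activated macrophages and neutrophils are known for a high use of this pathway, and many of its genes are known targets of the hypoxia-inducible factor HIF-1 and of Myc.

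Sequencing depth differed along the clone numbers. Monocytic libraries held 1.83 to 9.12 M (mega) counts in clones 15 to 25 and 22.9 to 34.5 M counts in clones 1 to 13. Progenitor libraries held 0.362 to 16.5 M counts in clones 15 to 25 and 12.6 to 47.3 M counts in clones 1 to 13, with clone 21 the shallowest, and primary libraries held 21.2 to 35.0 M counts. Member counts ran from 3 (Pgam1) to 112879 (Aldoa) per library. Levels below are in CPM, the gene's count relative to the total of its library, scaled over all libraries. Monocyte markers summed to 4680 to 61090 CPM in monocytic cells and 553 to 3002 CPM in progenitors, while progenitor markers summed to 87.4 to 1045 CPM in monocytic cells and 1896 to 4940 CPM in progenitors, and the markers follow the labels of the states. Neutrophil markers summed to a median of 59870 CPM in monocytic cells (240.9 to 195200) and 13.15 CPM in progenitors (1.43 to 7804). In such bulk libraries fewer cells of a type and less RNA per cell cannot be told apart. The progenitor libraries of clones 20 and 21 stood apart by neutrophil markers of 7804 and 5530 CPM, and the monocytic library of clone 22 by progenitor markers of 1045 CPM and monocyte markers of 4680 CPM. The monocytic library of clone 19 held mast cell and basophil markers of 10300 CPM, above its monocyte markers of 7730 CPM. The median of mast cell and basophil markers in monocytic cells was 192.8 CPM.

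Some members share sequence with other genes, which makes their counts less certain. Of all 50-base stretches of a member's transcripts in the GENCODE M21 annotation, 68.0% also occurred in another gene for Pgk1, 49.5% for Eno1 and 41.5% for Pgam1, mostly in retrocopies. The share was 15.4% for Pfkp, whose partner is the neighbouring gene Pitrm1, and it was 10.4% for Ldha, 8.46% for Aldoa, 6.83% for Tpi1, 1.56% for Slc2a1, 0.05% for Pfkl and 0 for Hk2. How reads in shared stretches were counted is not given in the sources used here.

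Per length of transcript, aldolase was the most abundant member in cultured cells and the hexokinase and the phosphoglycerate mutase were the scarcest. Mean levels in monocytic cells ran from 1560 CPM per kb for Aldoa to 12.1 CPM per kb for Pgam1, and in progenitors from 938 for Aldoa to 9.49 for Pgam1. The order was the same in both states: Aldoa, Ldha, Tpi1, Eno1, Pfkl, Pgk1, Pfkp, Slc2a1, Hk2 and Pgam1. In primary monocytes the highest member by this measure was Eno1 in nonclassical cells (534 CPM per kb), Ldha in intermediate cells (493) and Aldoa in classical cells (565). Aldoa also led in class 4 (586) and class 3 (669), and Eno1 led in class 2 (660) and class 1 (750). Hk2 was the lowest in 5 of these 7 primary groups, between 6.35 CPM per kb in class 4 and 17.4 in class 2, and Slc2a1 was the lowest in classical cells (19.1) and in class 3 (10.9).

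The promoters of 4 members are shown because their genes moved in different ways below: Ldha and Tpi1 followed each other closely over the libraries, Hk2 ran against them, and Slc2a1 opens the pathway. They are the 250 bases upstream of the RefSeq transcription start in GRCm38.p6, read in the direction of the gene, at chr7:46845554-46845803 (plus strand) for the first of the Ldha start sites, chr6:124814159-124814408 (minus strand) for Tpi1, chr6:82774455-82774704 (minus strand) for Hk2 and chr4:119108495-119108744 (plus strand) for Slc2a1. Capitals mark ACGTG and GCGTG, the cores that HIF-1 is known to bind, on either strand, and with them CACGTG, the E-box known for Myc, which contains ACGTG.
Ldha: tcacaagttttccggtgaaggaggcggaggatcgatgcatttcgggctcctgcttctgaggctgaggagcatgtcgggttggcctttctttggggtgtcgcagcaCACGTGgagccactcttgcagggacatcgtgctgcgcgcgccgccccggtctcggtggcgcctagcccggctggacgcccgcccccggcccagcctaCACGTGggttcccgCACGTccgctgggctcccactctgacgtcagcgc
Tpi1: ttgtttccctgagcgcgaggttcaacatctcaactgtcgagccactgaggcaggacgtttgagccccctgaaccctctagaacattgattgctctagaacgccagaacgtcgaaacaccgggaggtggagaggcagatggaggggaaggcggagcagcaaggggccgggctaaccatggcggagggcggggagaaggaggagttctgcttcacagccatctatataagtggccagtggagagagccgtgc
Hk2: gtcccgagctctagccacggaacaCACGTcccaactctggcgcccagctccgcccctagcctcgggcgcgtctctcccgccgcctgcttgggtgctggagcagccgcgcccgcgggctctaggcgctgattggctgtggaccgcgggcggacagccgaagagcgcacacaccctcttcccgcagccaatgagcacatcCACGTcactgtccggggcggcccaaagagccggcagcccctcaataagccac
Slc2a1: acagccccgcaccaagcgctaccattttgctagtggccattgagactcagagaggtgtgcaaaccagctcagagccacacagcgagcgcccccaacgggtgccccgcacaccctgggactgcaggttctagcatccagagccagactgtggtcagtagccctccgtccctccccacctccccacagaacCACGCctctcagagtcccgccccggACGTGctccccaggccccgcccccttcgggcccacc
The Ldha window held 5 matches to ACGTG, 4 of them in its 2 palindromic CACGTG, the Hk2 window held 2 and the Slc2a1 window held 1 ACGTG and 1 GCGTG. The Tpi1 window held none of these letters. All 10 members matched the RefSeq table, with 15 promoters between them. ACGTG occurred in 7 of the 15 promoters (6 of the 10 genes, among them Pgk1, Pgam1 and Aldoa), against 16.6% of all 32851 promoters of that length. GCGTG occurred in 8 of the 15 (6 of the 10 genes), against 28.2% of all promoters. CACGTG occurred in the Ldha promoter alone among the members, against 6.02% of all promoters. Several promoters of a gene overlap and share matches, and a match is a description of the letters, not a bound site.

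The first question was what happened to the pathway as progenitors became monocytic. Of the 10 members, 6 rose and 2 fell at an adjusted p under 0.05 (edgeR's quasi-likelihood test with the clone as a block, Benjamini-Hochberg adjustment over all genes). The call is a common one in this comparison: 78.6% of the 11614 genes tested passed it, 38.5% upward and 40.1% downward. The median log2 fold change was 0.38 over the members and -0.02 over all genes. The 10 members together made up 2058 to 10060 CPM (median 4612) in monocytic cells and 1650 to 7013 CPM (median 4076) in progenitors.

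**Figure D1:**
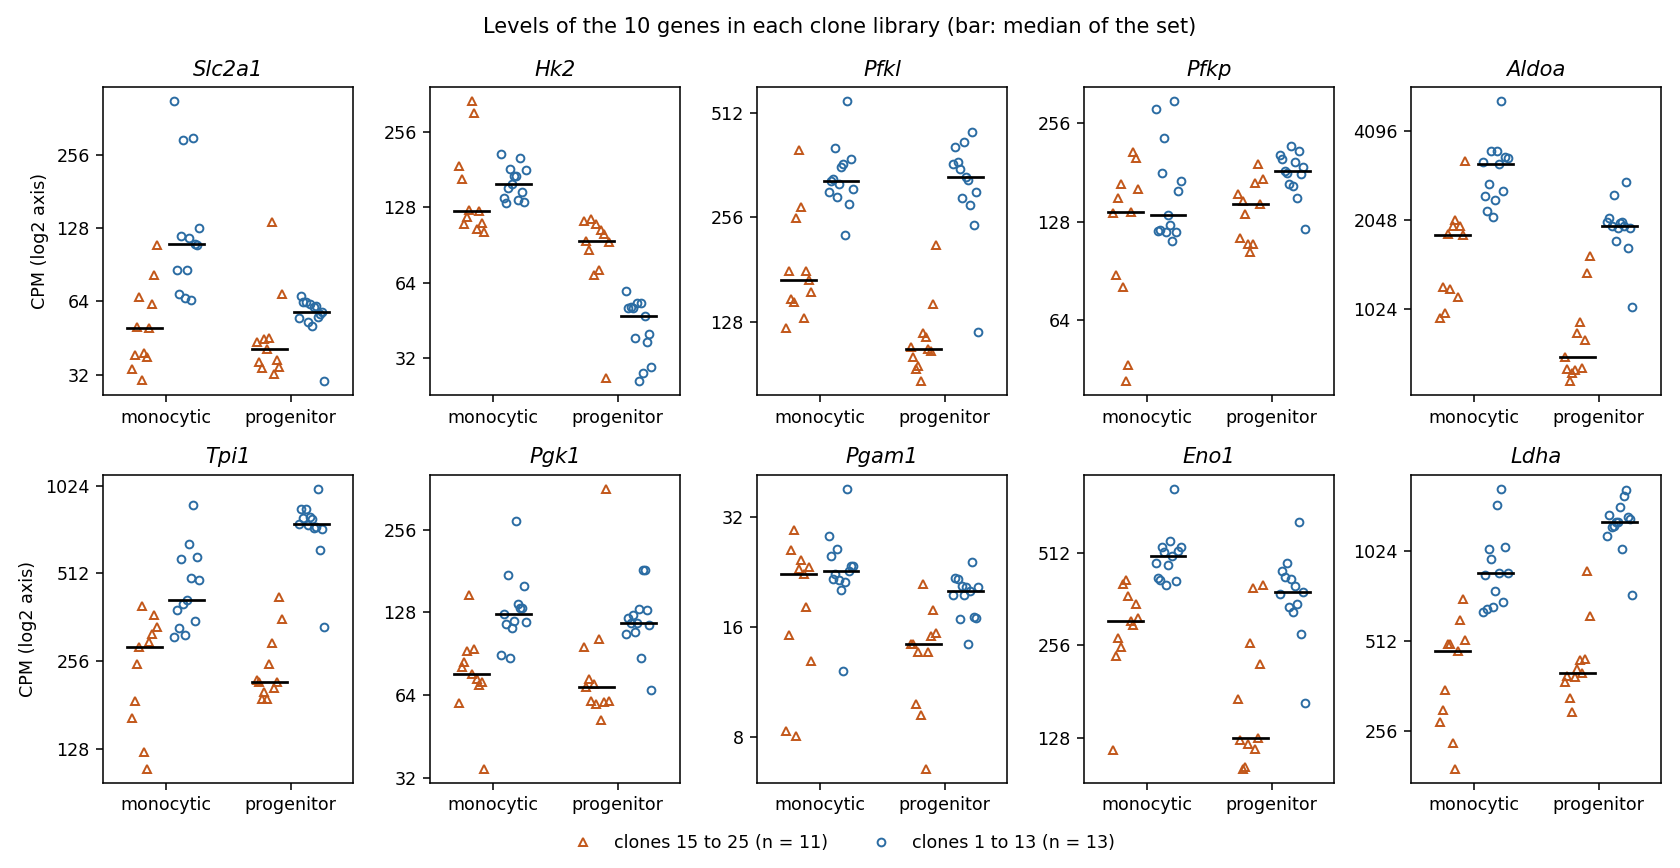
Level of each member in every library of the 24 clones, in CPM on a log2 axis, 1 point per clone with triangles for clones 15 to 25, circles for clones 1 to 13 and a bar at the median of each set. Hk2 lies higher in monocytic cells, between 102 and 339.5 CPM, than in progenitors, between 25.8 and 115 CPM, while Pfkp and Ldha spread to lower levels in monocytic cells.

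At the entry of the pathway, both genes rose in monocytic cells. The lowest, median and highest clone held 102, 150.1 and 339.5 CPM of Hk2 in monocytic cells and 25.8, 53.0 and 115 CPM in progenitors. The ranges overlapped only at their edges, and Hk2 was higher in the monocytic cells of all 24 clones, with a log2 fold change of 1.48 (SE 0.164, adjusted p = 4.38e-09). The change ran from 0.065 in clone 22, whose monocytic library kept progenitor markers, to 2.66 in clone 7. Slc2a1 held 30.6, 75.4 and 424 CPM in monocytic cells and 30.1, 53.9 and 135 CPM in progenitors. Its monocytic levels were spread widely, with clones 1, 10 and 5 at 424, 299 and 294 CPM, and the progenitor range lay almost wholly within the monocytic one. Slc2a1 rose by 0.75 on the log2 scale (SE 0.206, adjusted p = 0.00173) and was higher in 20 of 24 clones, from -1.92 in clone 21 to 3.07 in clone 1.

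Phosphofructokinase was represented by the liver-type and the platelet-type subunit. Pfkl held 123, 287 and 553 CPM in monocytic cells and 86.3, 229 and 450.1 CPM in progenitors, and rose by 0.41 (SE 0.125, adjusted p = 0.00456), with 18 of 24 clones higher. Pfkp held 41.7, 136 and 298 CPM in monocytic cells and 103, 168 and 218 CPM in progenitors. Its log2 fold change of -0.18 (SE 0.111, adjusted p = 0.147) did not pass the test, and 9 of 24 clones were higher in monocytic cells. The 2 lowest monocytic values of Pfkp, 41.7 and 46.7 CPM, were those of clones 20 and 21. Aldoa, which splits fructose bisphosphate into the triose phosphates, held 957, 2294 and 5158 CPM in monocytic cells and 584, 1596 and 2746 CPM in progenitors. It was higher in the monocytic cells of all 24 clones, by 0.82 on the log2 scale (SE 0.102, adjusted p = 3.49e-08), with changes between 0.20 in clone 7 and 1.70 in clone 13. Across clones the ranges of Aldoa overlapped between the states.

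In the lower part of the pathway Eno1 and Pgam1 rose. Eno1, the enolase that makes phosphoenolpyruvate, held 117, 415 and 828 CPM in monocytic cells and 102, 335 and 643 CPM in progenitors, and rose by 0.62 (SE 0.13, adjusted p = 0.000103) with 21 of 24 clones higher. Pgam1 held 8.03, 22.6 and 38.3 CPM in monocytic cells and 6.54, 16.99 and 24.1 CPM in progenitors, and rose by 0.35 (SE 0.109, adjusted p = 0.00464) with 19 of 24 clones higher. Pgk1, the first ATP-yielding enzyme, held 34.6, 103 and 276 CPM in monocytic cells and 51.8, 105 and 361 CPM in progenitors. Its log2 fold change of 0.10 (SE 0.153, adjusted p = 0.539) did not pass the test, and clones lay between -2.37 (clone 24) and 1.82 (clone 8). The progenitor value of 361 CPM was that of clone 24, whose Hk2 of 26.7 CPM was the lowest of its set, and the ranges of all 3 genes overlapped between the states.

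Tpi1 and Ldha fell. Tpi1, which interconverts the triose phosphates, held 109.5, 343 and 883 CPM in monocytic cells and 189.5, 520.2 and 1002 CPM in progenitors, and fell by 0.35 on the log2 scale (SE 0.147, adjusted p = 0.0335), with 6 of 24 clones higher. Ldha held 191, 662 and 1667 CPM in monocytic cells and 296, 961 and 1652 CPM in progenitors, and fell by 0.29 (SE 0.124, adjusted p = 0.0371), with 8 of 24 clones higher. The lowest monocytic values of both genes belonged to clones 21 and 20, at 109.5 and 125 CPM for Tpi1 and at 191 and 232 CPM for Ldha. In the fit without clone 21 neither call held, with log2 fold changes of -0.30 for Tpi1 (adjusted p = 0.0629) and -0.24 for Ldha (adjusted p = 0.0686). In those 2 monocytic libraries neutrophil markers summed to 153000 CPM (clone 21) and 115000 CPM (clone 20). Clone 9 held more, 195000 CPM, and clone 8 held less, 110000 CPM, with Ldha at 865 and 1464 CPM and Tpi1 at 493 and 646 CPM. Clones 9 and 8 belong to the set with deeper monocytic libraries, where Ldha and Tpi1 were higher in monocytic cells, as given below. Neutrophil content and clone set thus cannot be told apart in this contrast. The part of neutrophil markers in these falls was not tested.

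**Figure D2:**
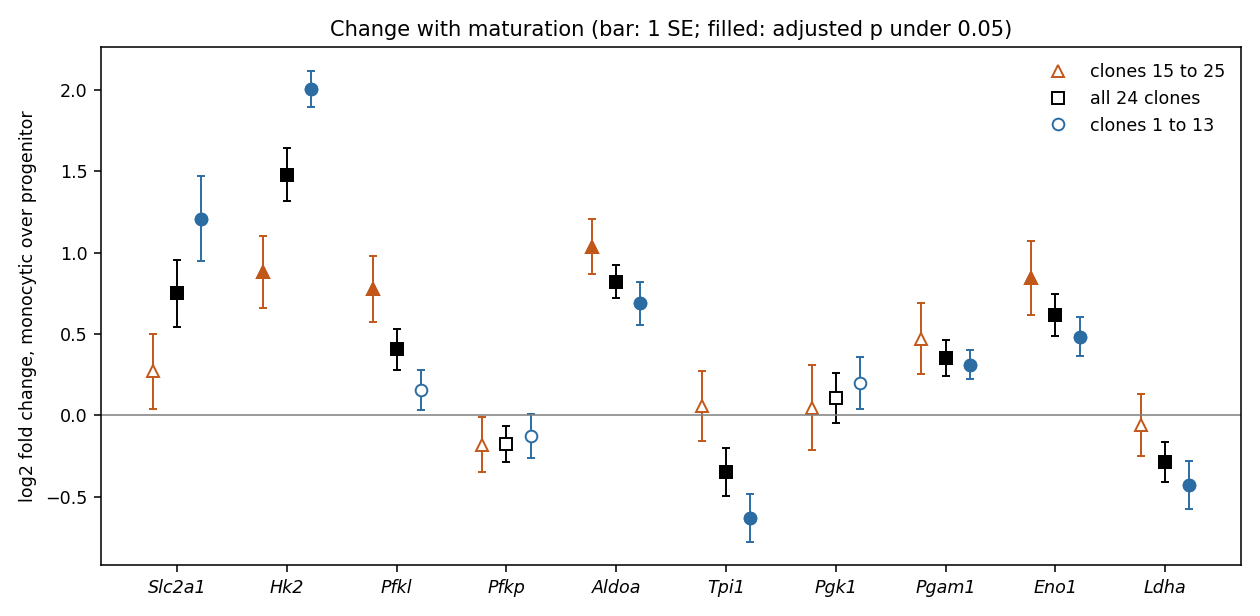
Log2 fold change of each member, monocytic over progenitor, fitted on clones 15 to 25, on all 24 clones and on clones 1 to 13, with bars of 1 SE and filled symbols at an adjusted p under 0.05. Hk2 lies at 0.88 in clones 15 to 25 and at 2.01 in clones 1 to 13, and Tpi1 and Ldha lie below 0 over all clones, at -0.35 and -0.29.

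The change was not the same in both sets of clones for the hexokinase. Fitted on clones 15 to 25 alone, 4 members rose and none fell: Aldoa by 1.04, Hk2 by 0.88, Eno1 by 0.84 and Pfkl by 0.78, where 58.9% of all genes passed. Fitted on clones 1 to 13 alone, 5 members rose and 2 fell, where 80.2% of all genes passed: Hk2 changed by 2.01, Slc2a1 by 1.21, Aldoa by 0.69, Eno1 by 0.48, Pgam1 by 0.31, Ldha by -0.43 and Tpi1 by -0.63. The difference between the sets was then tested itself. It passed for Hk2 alone among the members, where 23.7% of all genes passed (6.44% upward, 17.3% downward), with a rise in clones 15 to 25 smaller by a log2 difference of -1.17 (SE 0.231, adjusted p = 0.000864 by edgeR's quasi-likelihood test). The same difference was -0.97 for Slc2a1 (adjusted p = 0.0558), 0.65 for Tpi1 (adjusted p = 0.0805) and 0.58 for Pfkl (adjusted p = 0.062), and its median was 0.21 over the members and -0.11 over all genes. Without clone 21 the difference also passed for Tpi1 (0.79, adjusted p = 0.0177), and with DESeq2 size factors for Tpi1 (0.75, adjusted p = 0.0418) and Pfkl (0.68, adjusted p = 0.0377).

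Set against clones 1 to 13, clones 15 to 25 held less of most glycolytic transcripts and, as progenitors, more Hk2. In progenitors 7 members were lower in clones 15 to 25 and 1 was higher, where 58.0% of 11523 genes passed (31.2% higher, 26.8% lower). Ldha held 296, 399 and 879 CPM (lowest, median, highest) in progenitors of clones 15 to 25 and 729, 1290.0 and 1652 CPM in those of clones 1 to 13. In 10 of the 11 clones of the first set it lay below every clone of the other, with a log2 difference of -1.40 (SE 0.162, adjusted p = 1.24e-07). Tpi1 was lower by a log2 difference of -1.47 (SE 0.157, adjusted p = 3.84e-08), with medians of 217.5 CPM in clones 15 to 25 and 758 CPM in clones 1 to 13. The same difference was -1.38 for Pfkl, -1.10 for Aldoa, -0.88 for Eno1, -0.39 for Pgam1 and -0.26 for Pfkp, all past the threshold. Hk2 went the other way, with 26.7, 93.8 and 115 CPM in progenitors of clones 15 to 25 and 25.8, 47.0 and 59.2 CPM in those of clones 1 to 13. All but clone 24 of the first set lay above the highest value of the other, and the log2 difference was 1.14 (SE 0.164, adjusted p = 2.91e-06). Slc2a1 (-0.16) and Pgk1 (-0.25) did not pass. Clone 21 held the highest Slc2a1 of the progenitors, 135 CPM, and without it Slc2a1 was lower in clones 15 to 25 (-0.36, adjusted p = 0.0147), while Pfkp did not pass without clones 20, 21 and 22 (adjusted p = 0.0666). Markers of other cells moved with the set in progenitors: all 5 mast cell and basophil markers tested were lower in clones 15 to 25, with a median sum of 2389 CPM (752 to 8352) in clones 15 to 25 and 6703 CPM (1986 to 11880) in clones 1 to 13, as were all 3 erythroid markers tested. Of 7 monocyte markers 4 were higher, with a median sum of 1329 CPM (569.8 to 3002) in clones 15 to 25 and 716 CPM (553 to 1892) in clones 1 to 13. Their part in the member differences was not tested.

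In monocytic cells 7 members were lower in clones 15 to 25 and none was higher, where only 7.38% of 11783 genes passed (4.64% higher, 2.74% lower). Slc2a1 held 30.6, 49.9 and 109 CPM in monocytic cells of clones 15 to 25 and 65.2, 110.5 and 424 CPM in those of clones 1 to 13, a log2 difference of -1.35 (SE 0.318, adjusted p = 0.0103). Ldha held 191, 474 and 708 CPM in clones 15 to 25 and 643, 865 and 1667 CPM in clones 1 to 13, a difference of -1.04 (SE 0.213, adjusted p = 0.0035), and 10 of 11 clones again lay below the other set's range. Tpi1 (-0.76), Aldoa (-0.74), Pfkl (-0.67), Pgk1 (-0.64) and Eno1 (-0.61) also passed. Hk2 (0.14), Pfkp (-0.26) and Pgam1 (-0.17) did not. For Hk2, 7 of the 11 clones lay below the range of clones 1 to 13, and 2, clones 20 and 21, lay above it. The higher Hk2 of clones 15 to 25 was thus a feature of their progenitor libraries. Pgk1 lay close to the threshold (adjusted p = 0.0471). In these libraries neutrophil markers summed to a median of 13370 CPM (240.9 to 153500) in clones 15 to 25 and 90360 CPM (27410 to 195200) in clones 1 to 13, and monocyte markers to 19810 CPM (4680 to 40770) in clones 15 to 25 and 42700 CPM (20430 to 61090) in clones 1 to 13. Their ranges overlap between the sets, and their part in the member differences was not tested. The depth of the libraries differs along the same line, no label names a batch, and clone set, depth and batch cannot be told apart.

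Clones were then compared with each other over both states, which asks whether a clone keeps its level through maturation. A clone effect, that is a difference among clones after the difference between states is taken out, was called for 5 of 10 members, where 11.7% of all genes were called: Aldoa (adjusted p = 0.000428), Ldha (0.000818), Pfkl (0.00529), Tpi1 (0.0147) and Eno1 (0.0199), by edgeR's quasi-likelihood test. Within clones 15 to 25 alone no member was called (2 at an unadjusted p under 0.05, with 3.86% of all genes called), and within clones 1 to 13 alone none was called either (1 unadjusted, with 0.299% of all genes called). By DESeq2, which also called more of all genes (numbers are given below under the processing), the effect was called for 9 of 10 over all 24 clones.

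The rank of the clones gave a similar picture for the members called. Over the 24 clones the level in monocytic cells followed the level in progenitors of the same clone for 6 of 10 members (log2 CPM, permutation test, adjusted over all genes), where 8.3% of 11614 genes passed. Pearson's r was 0.815 for Aldoa, with a permutation p of 1e-05, the smallest that 100000 permutations can give, and an adjusted p of 0.00145. Its Spearman rho was 0.737 (permutation p of 4e-05), and r was 0.808 without the 2 clones farthest from the median. For Ldha, r was 0.742 with the same permutation and adjusted p, rho was 0.763 (permutation p of 4e-05), and r was 0.755 without the 2 farthest clones. The clone at the upper end was mostly the same. In CPM scaled over all libraries, clone 10 held the highest level in monocytic cells of Aldoa, Ldha, Tpi1, Pfkl, Pfkp, Pgam1 and Eno1. It also held the highest level in progenitors of all of these but Pfkp. On the log2 CPM used for rank, clone 9 (10.697) lay above clone 10 (10.642) for Ldha in progenitors, and clones 10 and 6 were level for Pfkp (7.672 and 7.671).

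The other 4 that passed were Pfkl, Pfkp, Eno1 and Tpi1. Their r was 0.672 for Pfkl (permutation p of 0.00046, 0.0137 adjusted), 0.632 for Pfkp (0.00107, 0.0221 adjusted), 0.624 for Eno1 (0.00069, 0.0175 adjusted) and 0.59 for Tpi1 (0.00187, 0.0309 adjusted). Their rho was 0.719 for Pfkl (permutation p of 9e-05), 0.461 for Pfkp (0.02494), 0.546 for Eno1 (0.00681) and 0.598 for Tpi1 (0.00238). Without the 2 farthest clones r was 0.689 for Pfkl, 0.466 for Pfkp, 0.565 for Eno1 and 0.59 for Tpi1. By rank alone, 3 members passed, Pfkl, Aldoa and Ldha, where 3.72% of all genes did. Pgam1 (r = 0.335), Pgk1 (0.219), Slc2a1 (0.083) and Hk2 (0.044) did not pass, and the median r over all genes was 0.191.

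None of these relations passed within the sets of clones. With each level centred on its clone set, 0 of 10 members passed the adjusted threshold (2 at an unadjusted permutation p under 0.05), where 1.14% of all genes did: r was 0.578 for Aldoa (adjusted p = 0.166) and 0.577 for Pfkp (adjusted p = 0.169). In clones 15 to 25 alone, Pfkp had r = 0.808 (adjusted permutation p = 0.0953) and Aldoa had r = 0.776 (adjusted permutation p = 0.108), while Ldha had r = 0.365 and Tpi1 had r = 0.011. In clones 1 to 13 alone, r was 0.14 for Aldoa, 0.029 for Ldha, 0.11 for Tpi1, 0.346 for Pfkl and 0.087 for Pfkp. By r, the only member there at an unadjusted p under 0.05 was Pgam1 (r = 0.632, adjusted permutation p = 0.576). Its rho was 0.203 (permutation p of 0.50568). Slc2a1 had a negative rho in these clones (-0.654, unadjusted permutation p of 0.01808), with r = -0.308. The shares of all genes that passed were 0.525% and 0.0431% in these sets. In clones 15 to 25 alone r of Pfkp and Aldoa was thus as large as over all 24 clones or close to it. These were the 2 highest r of the members there, and neither passed the adjusted threshold with 11 clones. In clones 1 to 13 alone their r was 0.087 and 0.14, and depth differs between the sets.

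**Figure D3:**
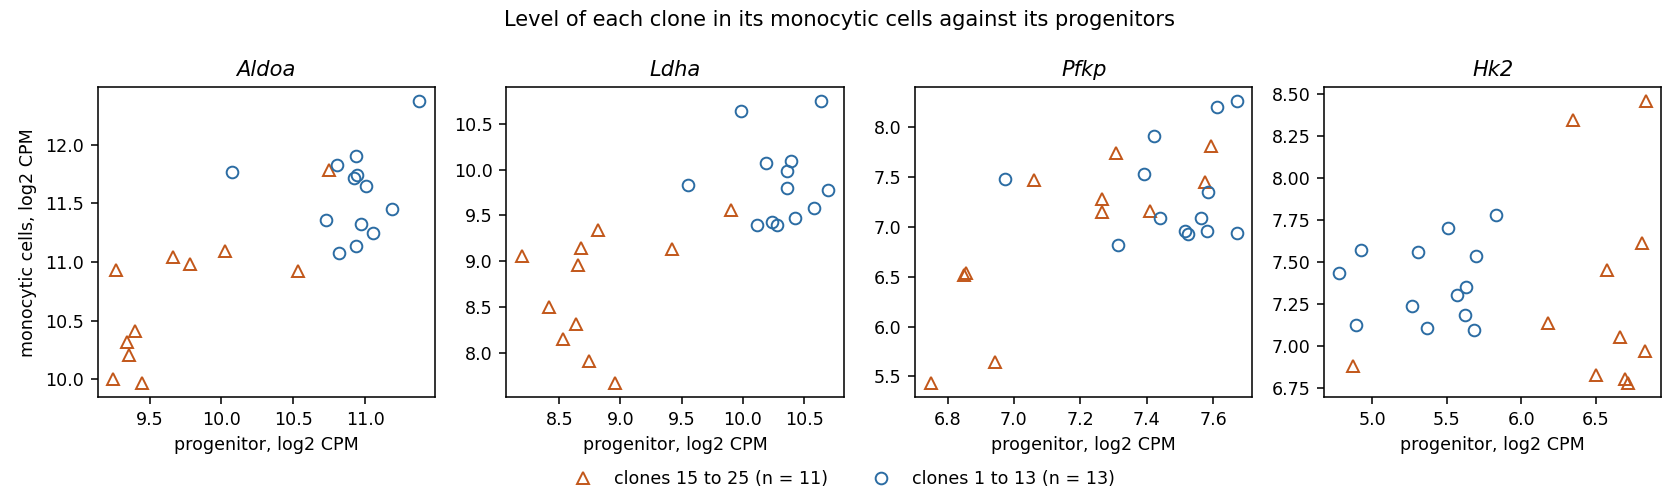
Level in monocytic cells against level in progenitors of the same clone for Aldoa, Ldha, Pfkp and Hk2, in log2 CPM, 1 point per clone with the sets of clones in different colours. Over all clones r was 0.815 for Aldoa, 0.742 for Ldha, 0.632 for Pfkp and 0.044 for Hk2, and for Ldha r was 0.365 in the triangles alone (clones 15 to 25) and 0.029 in the circles alone (clones 1 to 13).

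The members also varied together across the libraries of the clones. After each gene was centred on its state, the median correlation over the 45 pairs of members was 0.501, against 0.028 over pairs of all genes, and 51.1% of the pairs exceeded 0.5, against 8.2%. Centred on state and clone set, the median was 0.26, and 26.7% exceeded 0.5, against 8.23% for all genes. These are descriptions over 48 libraries that share clones and depth. The closest pair was Tpi1 with Ldha, at 0.969 centred on state and 0.927 centred on state and set. Pfkl with Eno1 (0.867 and 0.751) and Aldoa with Eno1 (0.867 and 0.742) followed the same pattern, and Aldoa with Tpi1 reached 0.978 in progenitors.

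Hk2 stood against the rest in progenitors and over both states centred on state, but not in monocytic cells. Its median correlation with the other 9 members was -0.324 centred on state, -0.633 in progenitors and 0.102 in monocytic cells. Centred on state and set it was -0.021, so the negative value appeared across the sets of clones more than within them. With Ldha it was -0.631 centred on state and -0.541 centred on state and set, and -0.85 in progenitors. With Pfkl it was 0.355 centred on state and set and 0.508 in monocytic cells. In monocytic cells Pfkp, Tpi1 and Ldha were negative with Hk2, while the other members were positive. Slc2a1 went with Aldoa (0.794) and Pfkp (0.736) in monocytic cells.

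**Figure D4:**
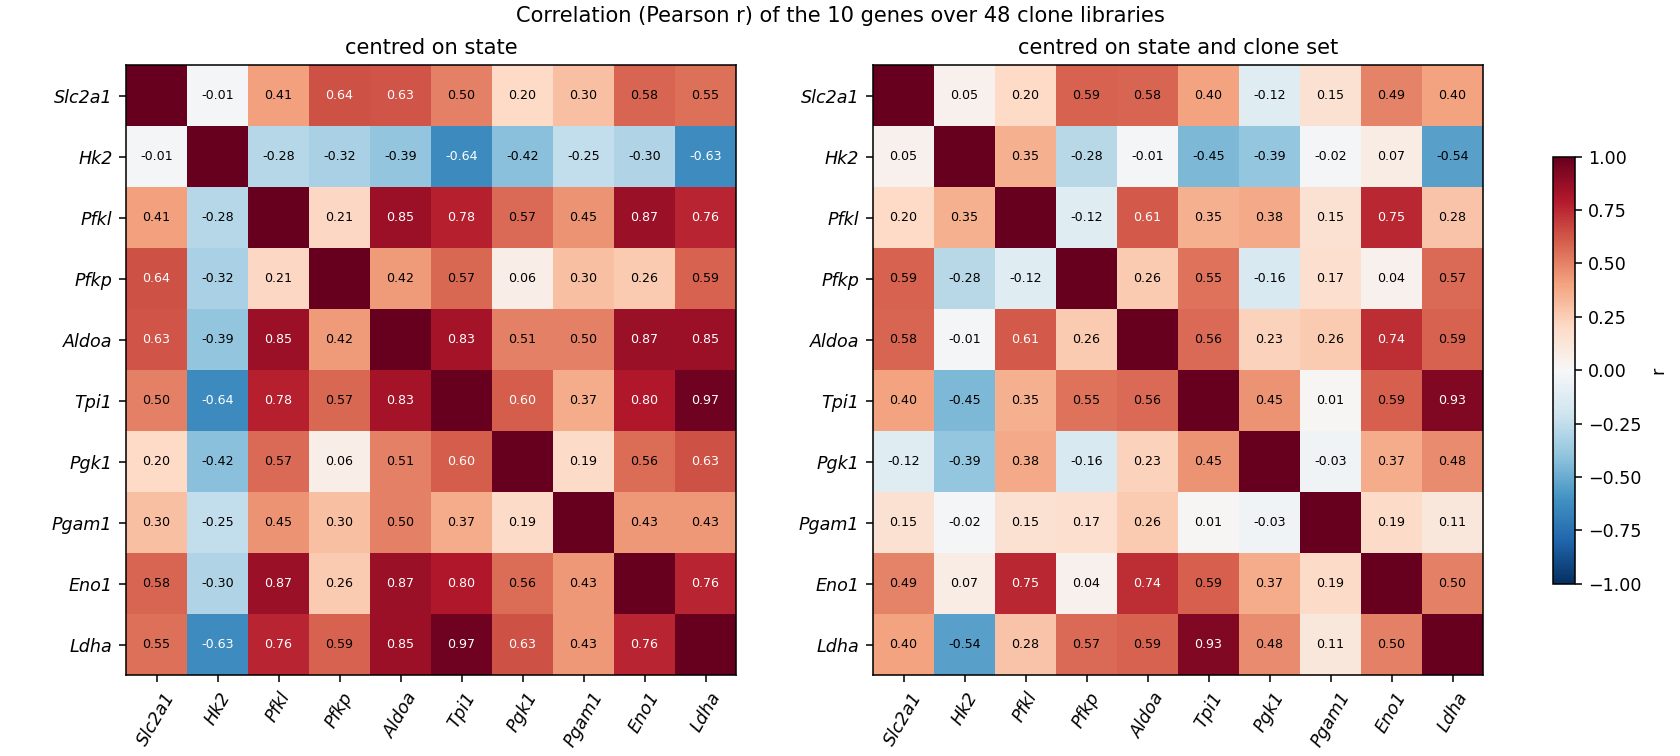
Pearson correlation of each pair of members over the 48 libraries of the clones, with log2 CPM centred on the state in one panel and on state and clone set in the other. Tpi1 and Ldha are the closest pair (0.969 and 0.927), and Hk2 is negative with Ldha in both panels (-0.631 and -0.541).

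Among 7570 genes that are no members, those most like them by mean correlation with the 10 members (centred on state, 48 libraries) were Pkm, listed as Pkm2 in the table (0.567), Prelid1 (0.524), Surf4 (0.515), Bnip3 (0.506), Bsg (0.506), Rabac1 (0.504), Pdk1 (0.498) and Rbpms (0.496). Pkm encodes the pyruvate kinase that follows enolase, Pdk1 a kinase that inhibits pyruvate dehydrogenase, and Bsg the chaperone basigin of lactate transporters. Centred on state and set, Pkm and Prelid1 kept places 1 and 2, at 0.436 and 0.427, and Rabac1 was at place 11 (0.336). Surf4, Bnip3, Bsg, Pdk1 and Rbpms were then at places 286, 199, 110, 134 and 314.

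Among the wider glycolytic genes, isoforms and partners of the members also changed with maturation. Of 19 tested, 10 rose and 5 fell, with a median log2 fold change of 0.54. Over all genes 38.5% rose and 40.1% fell, and the counts of the wider lists were not tested against these shares. Pfkfb4, a regulator of phosphofructokinase, rose by 3.91 (SE 0.168), and Pkm rose by 1.37, with a mean of 2375 CPM in monocytic cells and 932 CPM in progenitors. Pgam2, the muscle-type mutase, rose by 2.34. Slc16a1, the lactate transporter MCT1, fell by 1.84 on the log2 scale, with a mean of 52.5 CPM in monocytic cells and 175 CPM in progenitors. Gapdh did not pass (0.05).

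The pentose phosphate pathway, which leaves glycolysis after hexokinase and yields NADPH, rose in 5 of 7 genes and fell in 1: Pgd by 2.54, G6pdx by 2.28, Taldo1 by 1.68 and Tkt by 0.68 upward. G6pdx, its first enzyme, held a mean of 519 CPM in monocytic cells and 104 CPM in progenitors. Genes by which pyruvate enters mitochondria and is oxidised held 7 that fell and 3 that rose, of 11. The subunit gene Pdha1 changed by -1.30 and Pdk1 by -1.73, while the pyruvate carrier genes Mpc1 and Mpc2 rose by 1.57 and 1.26. Of 12 citrate cycle genes, 8 fell and 2 rose, among them Idh3a by -1.79, Fh1 by -1.42 and Ogdh by 0.67. Of 12 further genes known to respond to hypoxia, 4 rose and 4 fell, with Ndrg1 (1.81) and Vegfa (1.57) higher and Egln1 (-0.79) lower. Of 9 regulators of the pathway, 6 rose and 3 fell, and the lower ones held Mycn (-7.35) and Myc (-3.00), the transcription factors of growth.

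Between the sets of clones, more genes of the wider lists were called in progenitors than in monocytic cells, as was so for all genes (58.0% against 7.38%). In progenitors of clones 15 to 25, 8 of 12 citrate cycle genes and 6 of 11 pyruvate entry genes were lower, and 7 of 13 hypoxia-responsive genes were lower and 1 was higher, among them P4ha2 (-4.89) and Bnip3 (-1.87). Of 18 glycolytic isoforms and partners 7 were lower and 4 were higher, with Slc16a3, the lactate exporter MCT4, at -2.68 and Pfkfb2 at 1.73. In monocytic cells of clones 15 to 25, 4 of 12 hypoxia-responsive genes were lower, Ankrd37 (-2.02), Bnip3 (-1.81), Egln3 (-1.22) and Ero1l (-1.06). Beside them Slc16a3 (-1.36) and Pdk1 (-1.03) were lower.

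Primary monocyte subsets were compared next, to ask whether the pathway differs between nonclassical, intermediate and classical cells. Hk2 was the only member called. It held 37.3 and 47.6 CPM in nonclassical monocytes, 33.1 and 48.4 CPM in intermediate monocytes and 115 and 112 CPM in classical monocytes, so that the classical libraries lay above the others. The log2 fold change of nonclassical over classical cells was -1.37 (SE 0.253, adjusted p = 0.0494 by edgeR's quasi-likelihood test), where 5.82% of 13944 genes passed (2.91% higher, 2.9% lower). This call sits at the threshold. It was lost with the replicate number as a block (adjusted p = 0.0699), with no filter on low counts (0.059), and without classical replicate 1 (0.431) or 2 (0.371), nonclassical replicate 1 (0.1) or 2 (0.111) or intermediate replicate 2 (0.0548). Intermediate over classical cells differed by -1.41 (adjusted p = 0.0639) for Hk2, and no member passed there (3 at an unadjusted p under 0.05, and 3 by DESeq2: Hk2, Aldoa and Ldha), where 2.11% of genes did (1.19% higher, 0.918% lower). For nonclassical over intermediate cells no member passed (2 unadjusted, 0 by DESeq2), and 0.0% of genes passed, with 1710 genes at an unadjusted p under 0.05 and 1212 called by DESeq2. These tests have 3 residual degrees of freedom, and in counts simulated for this design none of the changes set in was called, so a member that did not pass may still differ.

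The other members did not pass in any pair of subsets by edgeR, and by DESeq2 Pgam1 passed in nonclassical over classical cells. Pgam1 held 39.9 and 50.2 CPM in nonclassical, 64.6 and 72.8 CPM in intermediate and 105 and 87.9 CPM in classical cells, a log2 fold change of -1.06 for nonclassical over classical (adjusted p = 0.0572). Pgk1 held 53.3 and 37.4 CPM in nonclassical, 97.6 and 64.2 CPM in intermediate and 91.0 and 89.0 CPM in classical cells. Ldha held 769 and 517 CPM in nonclassical, 969 and 820.2 CPM in intermediate and 551 and 543 CPM in classical cells. With 2 libraries each, the 3 subsets did not overlap for Pgam1, while the nonclassical and intermediate values of Ldha spread more than those of classical cells. How many of all genes separate in this way was not counted, here and for Hk2 above. Aldoa held 655 and 830.2 CPM in nonclassical, 489 and 646 CPM in intermediate and 864 and 885 CPM in classical cells. Eno1 held 1006 and 1159 CPM in nonclassical, 851 and 777 CPM in intermediate and 1176 and 1016 CPM in classical cells. For Tpi1 the 2 libraries of nonclassical and of intermediate cells lay far apart, with 417 and 223 CPM in nonclassical, 635 and 355 CPM in intermediate and 317 and 355 CPM in classical cells. Slc2a1 held 33.9 to 66.8 CPM, Pfkl 79.4 to 103 CPM and Pfkp 134 to 233 CPM over the 6 libraries.

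Nonclassical markers summed to 4746 to 6137 CPM in nonclassical, 2395 to 2416 CPM in intermediate and 852 to 918 CPM in classical libraries, in the order of the labels. Monocyte markers summed to 14640 to 22730 CPM in nonclassical, 10780 to 11160 CPM in intermediate and 41380 to 45310 CPM in classical libraries. They were thus lowest in the intermediate libraries. Markers of other cells were also present. Macrophage markers summed to 1011 to 1191 CPM in nonclassical, 769 to 1113 CPM in intermediate and 189 to 235 CPM in classical libraries, and B cell markers to 4102 to 4469, 1108 to 1233 and 516 to 569 CPM in the same order. Mast cell and basophil markers summed to 1724 to 7003 CPM in nonclassical and 3967 to 8575 CPM in intermediate cells, against 7.40 to 16.7 CPM in classical cells, and Cma1 was at 0 in nonclassical and classical libraries alike. Neutrophil markers summed to 348 to 1648 CPM in nonclassical, 5238 to 5671 CPM in intermediate and 1167 to 1501 CPM in classical libraries. Mitosis genes summed to 229 to 242, 793 to 853 and 1905 to 2118 CPM in the same order. The part of all these genes in the Hk2 difference was not tested. Of the wider lists, 2 genes of glycolysis rose and 1 fell in nonclassical over classical cells (Eno3 by 6.74, Pfkfb3 by 1.49, Pkm by -1.05), and Pgd (-2.05) and G6pdx (-1.26) of the pentose phosphate pathway were lower.

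Among the 4 classes of primary monocytes, 6 of 10 members differed somewhere, where 43.8% of 13686 genes did: Pgam1 (adjusted p = 0.00309), Slc2a1 (0.00568), Tpi1 (0.00729), Pgk1 (0.00966), Hk2 (0.0132) and Pfkp (0.0363), by edgeR's quasi-likelihood test over 8 libraries. Eno1 (0.0532), Ldha (0.0608), Aldoa (0.22) and Pfkl (0.548) did not pass. When single libraries were left out, the number of members called was 4 to 6: Pfkp was lost in 6 of 8 cases (adjusted p from 0.051 to 0.114), Hk2 without class 2 replicate 1 (0.0522) or 2 (0.0597), and Pgk1 without class 3 replicate 1 (0.0708).

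Between pairs of classes the members' counts lay near the shares of all genes called. In class 4 over class 1, 3 members were lower and none higher, where 25.1% of genes passed (10.2% higher, the rest lower). In class 4 over class 2, 2 members were higher and 3 lower (40.9% of genes, 19.5% higher and 21.4% lower), and in class 4 over class 3, 4 were lower (28.6% of genes passed, 15.7% of genes downward). In class 3 over class 1, 1 member was lower (13.4%, 5.44% higher and 7.94% lower), and in class 3 over class 2, 3 were higher and 1 lower (24.2%, 11.8% higher and 12.4% lower). In class 2 over class 1, 1 member was lower (9.29%, 3.34% higher and 5.95% lower).

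GLUT1 expression split the classes into pairs. Slc2a1 held 36.6 and 37.5 CPM in class 4, 34.3 and 37.0 CPM in class 3, 60.2 and 60.5 CPM in class 2 and 58.7 and 55.7 CPM in class 1. It was lower in class 4 than in class 1 (log2 fold change -0.62, adjusted p = 0.0215) and class 2 (-0.77, adjusted p = 0.00508), and lower in class 3 than in class 1 (-0.67, adjusted p = 0.0247) and class 2 (-0.82, adjusted p = 0.00574). Hk2 held 28.8 and 41.1 CPM in class 4, 56.4 and 82.2 CPM in class 3, 94.2 and 97.6 CPM in class 2 and 48.6 and 71.6 CPM in class 1. It was lower in class 4 than in class 2 (-1.52, SE 0.272, adjusted p = 0.00318) and class 3 (-0.99, adjusted p = 0.0289), and class 4 did not overlap any other class. How many of all genes separate in this way was not counted, here and for the genes of class 3 and class 2 below.

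Pgam1, Pgk1 and Tpi1 were higher in class 3 than in class 2. Pgam1 held 65.8 and 71.2 CPM in class 4, 130.0 and 122 CPM in class 3, 66.8 and 61.0 CPM in class 2 and 96.7 and 86.3 CPM in class 1. Pgk1 held 86.8 and 70.0 CPM in class 4, 115 and 108 CPM in class 3, 59.1 and 53.9 CPM in class 2 and 80.5 and 78.8 CPM in class 1. Tpi1 held 312 and 334 CPM in class 4, 391 and 390.5 CPM in class 3, 238 and 233 CPM in class 2 and 379 and 359 CPM in class 1. In class 3 over class 2 all 3 rose, Pgam1 by 0.92 (adjusted p = 0.00224), Pgk1 by 0.92 (adjusted p = 0.00356) and Tpi1 by 0.67 (adjusted p = 0.00329), and class 3 lay above class 2 in both libraries of each. Class 2 over class 1 passed for Tpi1 alone (-0.57, SE 0.11, adjusted p = 0.0165). In class 4 over class 3, Pgam1 (-0.88, adjusted p = 0.00325), Pfkp (-0.72, adjusted p = 0.0174) and Pgk1 (-0.51, adjusted p = 0.0398) were lower beside Hk2.

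Ldha, Eno1 and Pfkp added differences of class 4. Ldha held 679 and 853 CPM in class 4, 776 and 642 CPM in class 3, 512 and 461 CPM in class 2 and 646 and 603 CPM in class 1, and was higher in class 4 than in class 2 (0.59, adjusted p = 0.0201), as was Tpi1 (0.39, adjusted p = 0.0241). Eno1 held 923 and 973 CPM in class 4, 1338 and 1056 CPM in class 3, 1481 and 1195 CPM in class 2 and 1675 and 1367 CPM in class 1, and was lower in class 4 than in class 2 (-0.56, adjusted p = 0.0354) and class 1 (-0.67, adjusted p = 0.0272). Pfkp was lower in class 4 than in class 1 (-0.64, adjusted p = 0.0304), with 163 and 145 CPM in class 4 and 268 and 213 CPM in class 1. Aldoa lay between 753 and 1089 CPM and Pfkl between 83.0 and 137 CPM over the 8 libraries, and neither was called in any pair by edgeR, while DESeq2 called Aldoa in class 3 over class 2 (0.35, adjusted p = 0.0171).

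**Figure D5:**
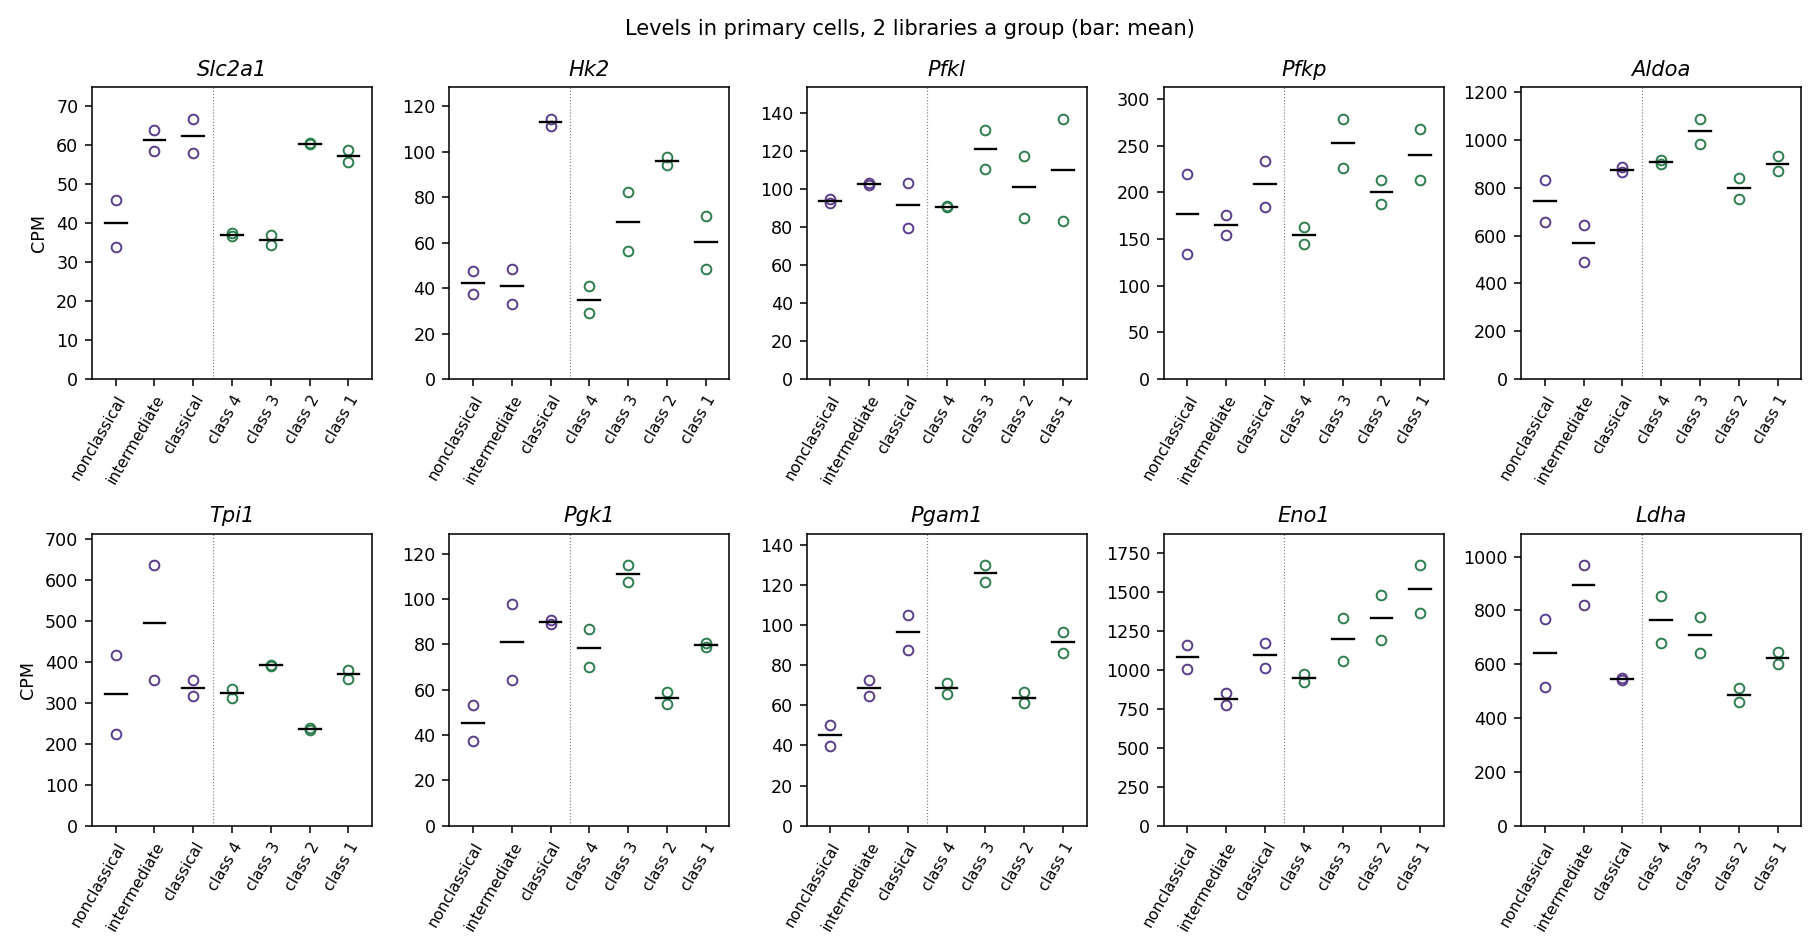
Level of each member in the libraries of primary monocytes, in CPM on a linear axis from 0, 1 point per library and a bar at the mean of each group. The groups run from nonclassical to classical and from class 4 to class 1, and Slc2a1 lies at 34.3 to 37.5 CPM in classes 4 and 3 and at 55.7 to 60.5 CPM in classes 2 and 1.

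Not all of these calls held when single libraries were left out, which leaves 1 library in an arm that is assumed to vary like the other classes. The calls of Hk2 and Slc2a1 in class 4 over class 2, of Pgam1, Pgk1 and Tpi1 in class 3 over class 2, and of Pgam1 in class 4 over class 3 held in all 8 cases. Slc2a1 was lost in class 3 over class 1 without each of the libraries of these classes in turn (adjusted p from 0.101 to 0.167), in class 4 over class 1 without class 1 replicate 1 (0.128) or 2 (0.0846), and in class 3 over class 2 without class 3 replicate 1 (0.0622). Tpi1 was lost in class 2 over class 1 likewise (0.0717 to 0.132), and in class 4 over class 2 in 5 of 8 cases (0.0508 to 0.0943). Eno1 was lost in class 4 over class 1 without class 1 replicate 1 (0.158) or class 4 replicate 1 (0.0668) or 2 (0.05), and in class 4 over class 2 without class 2 replicate 1 (0.163) or class 4 replicate 1 (0.0945) or 2 (0.0633). Pfkp was lost in class 4 over class 1 without class 1 replicate 1 (0.196) or class 4 replicate 2 (0.0868), and in class 4 over class 3 without class 3 replicate 1 (0.118) or class 4 replicate 2 (0.0524). Ldha was lost in class 4 over class 2 without class 2 replicate 1 (0.0504) or 2 (0.0945) or class 4 replicate 2 (0.0924). In class 4 over class 3, Hk2 was lost without class 2 replicate 1 (0.0557) or 2 (0.0549), class 3 replicate 2 (0.194) or class 4 replicate 1 (0.0789), and Pgk1 in 7 of 8 cases (0.0661 to 0.199).

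Markers of other cells differed between the classes. Monocyte markers summed to 17050 to 17110 CPM in class 4, 21730 to 25330 CPM in class 3, 66290 to 70130 CPM in class 2 and 54470 to 58840 CPM in class 1. The class 4 libraries held neutrophil markers at 50280 to 70780 CPM, against 6529 to 10830 CPM in class 3, 1294 to 1595 CPM in class 2 and 702 to 1260 CPM in class 1, and erythroid markers at 3310 to 4273 CPM, against 1.41 to 98.6 CPM in the other classes. Mitosis genes summed to 1125 to 1294 CPM in class 4, 3036 to 3090 CPM in class 3, 104 to 130 CPM in class 2 and 1236 to 1280 CPM in class 1. The part of these markers in the member differences was not tested. Of 19 glycolytic isoforms and partners, 7 were higher and 6 lower in class 4 over class 2, and in class 3 over class 2 5 of 12 citrate cycle genes were higher, among them Idh3a (1.31) and Fh1 (1.05).

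Last, the monocytic cells of the clones were set against primary classical monocytes. Of 10 members 2 were higher in the clones and 2 lower, where 30.8% of 14319 genes passed (15.8% higher, 14.9% lower), and the median log2 fold change was 0.36 over the members and 0.15 over all genes. Aldoa held 957 to 5158 CPM in monocytic clones (median 2294) and 864 and 885 CPM in classical monocytes, with a log2 fold change of 1.49 (SE 0.509, adjusted p = 0.0266). Pfkl held 123 to 553 CPM (median 287) in monocytic clones and 103 and 79.4 CPM in classical monocytes, with 1.62 (SE 0.465, adjusted p = 0.00911). Every clone lay above both classical libraries for each of these genes. How many of all genes separate in this way from 2 libraries was not counted, here and for the genes below.

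Pgam1 and Eno1 were lower in the clones. Pgam1 held 8.03 to 38.3 CPM (median 22.6) in monocytic clones and 105 and 87.9 CPM in classical monocytes, without overlap, and its log2 fold change was -2.13 (SE 0.276, adjusted p = 7.21e-07). Eno1 held 117 to 828 CPM (median 415) in monocytic clones and 1176 and 1016 CPM in classical monocytes, also without overlap, with -1.38 (SE 0.317, adjusted p = 0.00146). Both are members with many shared stretches, as is Pgk1, which did not pass (0.34), and the part of shared sequence was not tested. The calls of Pgam1 and Eno1 held with clones 15 to 25 alone, where Aldoa and Pfkl did not pass. With clones 1 to 13 alone Hk2 passed as well (0.51, adjusted p = 0.0319), with 47.9% of all genes called. Without classical replicate 1, Pgam1 alone was called, while Aldoa (1.48, adjusted p = 0.203), Pfkl (1.83, 0.0775) and Eno1 (-1.27, 0.0628) kept differences of similar size and did not pass. Without classical replicate 2, Aldoa (1.49, 0.191) and Pfkl (1.43, 0.157) did not pass. In these fits the 1 classical library left is assumed to vary like the clones. Neutrophil markers summed to a median of 59870 CPM in monocytic clones and 1167 to 1501 CPM in classical monocytes, with 4 of 8 higher, and B cell markers to a median of 95.0 CPM in monocytic clones and 516 to 569 CPM in classical monocytes, with all 5 lower. Their part in the member differences was not tested. Origin, culture and sorting cannot be told apart in this comparison.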

How the data were processed

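Bulk RNA-seq of 62 libraries was analysed from 1 table of raw read counts per gene. Per the labels, total RNA was extracted with RNeasy mini columns (Qiagen) and libraries were made with NEB kits. Per the submitters' processing notes, the authors used STAR 2.7.3a, HTSeq 0.6.0 and mm9. The annotation, strand setting and read filters are not given in the sources used here. The deposited values are whole-number counts with no normalization, and 1 value column that matches no sample was not used. Clones were paired across states by the clone number in the labels.

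Counts were tested with edgeR 4.0.16 (R 4.3.3, quasi-likelihood F test, TMM factors, filterByExpr with a minimum count of 10, two-sided) over all genes, with Benjamini-Hochberg adjustment and a threshold of 0.05. Maturation and the clone effect were fitted with state and clone, its dependence on the clone set as an interaction, and the clone sets, subsets, classes and culture as groups. An SE is the log2 fold change over the root of its F statistic. Printed CPM use TMM factors over all 62 libraries. Clone rank used log2 CPM with a prior count of 2 and 100000 permutations (numpy 2.4.6, numba 0.67.0). Correlations of members are descriptions. On simulated data with known changes, the maturation fit called most of them, the classes fit some and the subsets fit none. Alternatives were DESeq2 1.42.0, its size factors, TMM over all libraries, no filter, a minimum count of 30, the replicate block, single sets of clones and single libraries left out (a lone library is then assumed to vary like the other groups). A fit without clones 20, 21 and 22 was chosen after seeing the data. Depth ran from 0.362 to 47.3 M (mega) counts per library, and low depth widens the error of low members such as Pgam1 most.

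The members and gene lists were chosen with earlier results of these data known. The text names all 10 members, up to 4 called genes of lowest p per wider list and comparison with the most expressed uncalled one, and the 8 genes most like the members. Promoters are from RefSeq on GRCm38.p6, not the build of the counts.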

Additional observations from a re-analysis of the deposited data

Results flagged for a closer look

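The rise of Hk2 with maturation was flagged because it differed between the sets of clones when that difference was tested itself. Hk2 rose by 0.88 on the log2 scale in clones 15 to 25 and by 2.01 in clones 1 to 13, a difference of -1.17 (SE 0.231, adjusted p = 0.000864, edgeR's quasi-likelihood test). It was higher in the monocytic cells of 11 of 11 clones in the first set and 13 of 13 in the second. Over 7 alternatives the difference lay between -1.31 and -1.03 with adjusted p from 0.000122 to 0.00532. The monocytic medians were 124 CPM in clones 15 to 25 and 158 CPM in clones 1 to 13, and the progenitor medians were 93.8 CPM in clones 15 to 25 and 47.0 CPM in clones 1 to 13. Library depth differed without overlap between the sets in monocytic cells. In progenitors its ranges overlapped, with medians of 12.5 M counts in clones 15 to 25 and 14.7 M counts in clones 1 to 13. The part of depth was not tested.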

How the results depend on the processing

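The counts of members called were recomputed under each alternative. The share of all genes called also differed between alternatives, so a member count is not a result by itself. For clone rank it was 8.3% in the main test, 3.72% by Spearman's rho and 0.852% as residuals on log2 total count. Maturation gave 5 members without the clone as a replicate block and 4 in clones 15 to 25 alone, against 8. Its dependence on the clone set, 1 member, gave 3 with DESeq2 size factors, 3 with no filter, 4 by DESeq2, 2 without clone 21 and 2 without clones 20, 21 and 22. The clone effect, 5 members, gave 9 by DESeq2 and 0 in either set of clones alone. Clone rank, 6 members, gave 3 by Spearman's rho and 0 centred on the set, in clones 1 to 13 alone, in clones 15 to 25 alone and as residuals on log2 total count. Culture gave 2 with clones 15 to 25 alone and 1 to 2 with a classical library left out, against 4.

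Nonclassical over classical, 1 member, gave 0 with DESeq2 size factors, 0 with TMM over all libraries, 0 with no filter, 2 by DESeq2 and 0 with the replicate block. Intermediate over classical, 0 members, gave 3 by DESeq2. Class 2 over class 1, 1 member, gave 2 with no filter, 2 by DESeq2 and 2 with the replicate block, and class 3 over class 1, 1 member, gave 3 by DESeq2. With single libraries left out, counts ran from 0 to 1 for nonclassical over classical, stayed at 0 for the other pairs of subsets, and ran from 4 to 6 for any class difference, 0 to 1 for class 2 over 1, 0 to 3 for class 3 over 1, 0 to 3 for class 4 over 1, 3 to 5 for class 3 over 2, 2 to 5 for class 4 over 2 and 2 to 3 for class 4 over 3. Replicate numbers of the subsets (correlation 0.18 to 0.384) and classes (-0.011 to 0.073) do not pair samples by any label, with only 2 numbers each.

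Among members called by the main fit, the direction turned for Tpi1 with maturation in clones 15 to 25 alone (0.05751, adjusted p = 0.834). For clone rank as residuals on depth it turned in Tpi1 (-0.0716) and Ldha (-0.0183). The cause was not tested. Without the clone block Pfkl (adjusted p = 0.149), Tpi1 (0.0723) and Ldha (0.198) lost their maturation call, and with no filter Pfkl (0.0612) and Pgam1 (0.0994) lost it and Pfkp gained it (-0.28, 0.0328). Tpi1 and Ldha lost it too without clones 20, 21 and 22 (0.0618 and 0.0802). Of all values for single members, 1725 kept their side of the threshold, 120 lost the call, 51 gained it and 3 turned with a call. The 1725 include values that turned without a call in either fit, and tests that have no direction. With clones 15 to 25 alone, the culture difference turned in this way for Slc2a1 (0.81 to -0.09) and Ldha (0.38 to -0.28). Over all genes DESeq2 called 4122 against 1357 for the clone effect, 1512 against 870 for the clone set in monocytic cells, 3357 against 811 for nonclassical over classical, 3103 against 294 for intermediate over classical, 1212 against 0 for nonclassical over intermediate, 2234 against 1272 for class 2 over class 1 and 2797 against 1831 for class 3 over class 1. With no filter 2054 were called for the clone effect and 2325 for class 2 over class 1, and without clones 20, 21 and 22 2443 for the clone set in monocytic cells. Depth limits Pgam1 most, at 3 counts in the shallowest library.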

Other observations

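Isoforms of the same steps were used unevenly by the groups. Eno3, the muscle-type enolase, averaged 701 CPM in nonclassical (518 to 884), 257 CPM in intermediate (232 to 282) and 6.69 CPM in classical monocytes (6.08 to 7.29). It averaged 14.6 CPM in class 4, 5.82 CPM in class 3, 102 CPM in class 2 and 40.3 CPM in class 1. In the clones it averaged 4.34 CPM in monocytic cells and 7.54 CPM in progenitors. The log2 fold change was 6.74 for nonclassical over classical cells (adjusted p = 0.00433, edgeR), 5.33 for intermediate over classical cells and -4.20 for class 3 over class 2.

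Slc2a3, the glucose transporter GLUT3, averaged 320.3 CPM in monocytic cells, with clones from 2.39 to 1217 CPM, and 53.0 CPM in progenitors (34.8 to 73.0). Among the classes it averaged 202 CPM in class 4, 25.8 CPM in class 3, 8.77 CPM in class 2 and 10.9 CPM in class 1, with a log2 fold change of 4.21 for class 4 over class 1. Bpgm, the bisphosphoglycerate mutase of red cells, averaged 128 CPM in class 4 and 11.03 CPM, 12.8 CPM and 11.4 CPM in class 3, class 2 and class 1, and class 4 also held the erythroid markers given above. Hk3 averaged 532 CPM in monocytic cells and 381 CPM in progenitors, and Hk1 averaged 353 CPM in monocytic cells and 335 CPM in progenitors.

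Ldhb, the other chain of lactate dehydrogenase, had 0 counts in 14 of 24 monocytic libraries, with at most 5 counts, and 0 counts in 21 of 24 progenitor libraries, with at most 3 counts. Primary cells held it at 0.872 to 11.1 CPM in nonclassical, 15.3 to 27.3 CPM in intermediate and 50.5 to 61.0 CPM in classical monocytes, and at 47.2 to 88.5 CPM over the classes. Gapdh averaged 68.3 CPM in monocytic cells and 66.1 CPM in progenitors, and 595 CPM in nonclassical, 686 CPM in intermediate and 627 CPM in classical monocytes. Its log2 fold change for monocytic clones over classical monocytes was -3.16 (adjusted p = 3.25e-11, edgeR). Gapdh is known for many processed copies in the mouse genome, and how reads shared with them were counted is not given in the sources used here. Hk1, Hk3, Ldhb and Slc2a3 in the clones were looked at after their values were seen.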
